A study of Rattus norvegicus with 12 samples.

Results

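Levels of 7 genes used as markers of phagocytes, the microglia and macrophages that engulf debris, were examined in rat spinal cord at the ninth thoracic segment (T9). The genes were picked by Ensembl identifier and are Cd68, Aif1, Itgam, Ptprc, Spp1, Lgals3 and Lyz2. All 7 were among the 32883 genes of the deposited count table. The pairing of identifier and symbol came with the selection. Each of the 7 symbols is a rat gene in RefSeq, but no table used here pairs RefSeq symbols with Ensembl identifiers, so the pairing itself could not be checked.

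The 12 libraries were made from T9 cord of Sprague Dawley rats, an outbred strain, and fell into 3 groups of 4. Uninjured cord came from animals with no spinal cord injury. Injured cord was taken 5 days after a hemisection at T9, a cut through 1 side of the cord. Cord of the third group, called stimulated here, was taken 5 days after the same injury from animals that also received epidural electrical stimulation over L2 to S1, so the injury itself is shared by both injured groups and the measured segment is the injury site. The labels give no age, sex, sham operation, dissected length or side, and do not say which library came from which animal, so the tests below rest on the spread between libraries, which may be technical. Counts came from the 3' ends of transcripts (CEL-Seq2).

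Microglia are the resident macrophages of the central nervous system. After a cord injury they multiply at the lesion and are joined by macrophages that derive from blood monocytes, and both clear myelin debris and dead cells through lysosomes. The 7 genes are active in both populations and do not tell them apart. In a piece of tissue, more cells of a type and more RNA per cell cannot be told apart either. Counts of genes known only by identifier could not be used as markers of other cell types, so the makeup of the tissue was not checked.

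The genes differ in role. Itgam (ENSRNOG00000019728) encodes CD11b, an integrin chain with which myeloid cells bind complement-coated material, and Ptprc (ENSRNOG00000000655) encodes CD45, the phosphatase on the surface of nucleated blood-derived cells and microglia. Aif1 (ENSRNOG00000000853) encodes Iba1, an actin-binding protein in the cytoplasm that is widely stained to show microglia. Cd68 (ENSRNOG00000037563) encodes a glycoprotein of the lysosome membrane and Lyz2 (ENSRNOG00000005825) encodes lysozyme, which breaks bacterial cell walls. Spp1 (ENSRNOG00000043451) encodes osteopontin, a secreted ligand of integrins that some neurons also make, and Lgals3 (ENSRNOG00000010645) encodes galectin-3, a lectin that binds sugars on cell surfaces and damaged lysosomes.

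Promoter sequence from RefSeq (build GRCr8) was found for 5 of the 7 symbols: Cd68, Itgam, Ptprc, Spp1 and Lyz2. The 250 bases before the annotated start of 4 genes that rose together after injury are shown 5′ to 3′ on the strand of the gene, because they let genes of like change be compared in sequence. Capitals mark matches on either strand to GGAAGT, a core of sites for ETS factors such as PU.1 of myeloid cells, and to TGANTCA, the site of AP-1 factors. The intervals are chr10:54882442-54882691 for Cd68, chr7:54798012-54798261 for Lyz2, chr14:5619805-5620054 for Spp1 and chr13:52259747-52259996 for Ptprc, all on the minus strand.
Cd68: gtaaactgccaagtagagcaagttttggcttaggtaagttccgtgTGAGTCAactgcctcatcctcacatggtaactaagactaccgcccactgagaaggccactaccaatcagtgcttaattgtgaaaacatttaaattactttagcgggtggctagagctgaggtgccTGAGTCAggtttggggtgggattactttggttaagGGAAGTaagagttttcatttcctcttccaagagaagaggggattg
Lyz2: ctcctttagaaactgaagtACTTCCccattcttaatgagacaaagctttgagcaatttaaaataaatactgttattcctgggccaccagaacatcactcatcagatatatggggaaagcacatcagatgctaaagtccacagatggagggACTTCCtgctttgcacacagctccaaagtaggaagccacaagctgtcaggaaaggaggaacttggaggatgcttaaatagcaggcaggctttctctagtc
Spp1: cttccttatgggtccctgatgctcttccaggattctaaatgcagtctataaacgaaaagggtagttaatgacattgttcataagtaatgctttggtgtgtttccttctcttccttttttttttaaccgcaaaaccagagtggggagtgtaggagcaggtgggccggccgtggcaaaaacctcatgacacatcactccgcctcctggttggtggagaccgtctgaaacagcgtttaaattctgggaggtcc
Ptprc: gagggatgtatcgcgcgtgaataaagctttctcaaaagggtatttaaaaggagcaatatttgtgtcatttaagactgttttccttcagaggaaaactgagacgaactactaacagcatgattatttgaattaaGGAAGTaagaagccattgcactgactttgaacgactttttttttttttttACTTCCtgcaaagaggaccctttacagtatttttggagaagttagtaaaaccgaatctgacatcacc
No capitals of the 2 motifs overlapped. Among 33469 rat promoters of the same length, 19.2% held GGAAGT and 6.34% held TGANTCA. Cd68 held 1 GGAAGT, 40 to 45 bases before the start, and 2 copies of TGANTCA. Lyz2 and Ptprc held 2 matches to GGAAGT each. Spp1 held neither motif in this window, and neither did Itgam, whose sequence is not shown. A further motif, CACGTG, was also searched and was found in none of these genes, while 5.59% of the rat promoters held it. A match is a stretch of letters and not a site known to be bound in these cells.

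Summed over the 7 genes, the share of a library's counts was 0.0929% ± 0.0284 without injury (mean ± SD, n = 4), 0.822% ± 0.142 with injury and 1.05% ± 0.185 with injury and stimulation. This sum is mostly Lgals3, with 68.6%, 56.8% and 56.4% of it in the 3 groups in that order (means). Spp1 made up 14.7%, 21.3% and 25.4%, so the sum says little of the low genes. Libraries held 204836 to 553986 counts in total. A single count was worth 1.69 to 5.67 CPM, the unit of level used below, a count scaled to a common library size and adjusted for composition. Depth limits Cd68 and Itgam most, which had 242 and 19 counts over all 12 libraries. Of the 5285 genes that passed a filter on low counts, 6 were members. Itgam did not pass and was not tested. Cd68 reached the level set by the filter in 8 libraries and in 0 of 4 uninjured ones, so it passed through the groups where it was high. Ptprc reached that level in 2 of 4 uninjured libraries, so it also passed through the groups where it was high.

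Some libraries stood apart before any gene was considered. On the first principal component of all genes tested, injured replicate 1 lay between the uninjured and the other injured libraries, and its level was below the injured group mean (log2 scale) for 6 of 6 members tested. The share of all genes tested that lay below their mean in that library was not computed. Over the 5285 genes, the largest component of variation within groups held 39.5% of the variance and had uninjured replicates 2 and 3, injured replicates 1 and 3, and stimulated replicates 1 and 3 at 1 end. Of the members, Lgals3 lay toward that end (rank 294 of 5285 genes by loading), Spp1 and Lyz2 toward the other (ranks 4498 and 4303), and Ptprc, Aif1 and Cd68 between them. What this component reflects was not tested.

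**Figure D1:**
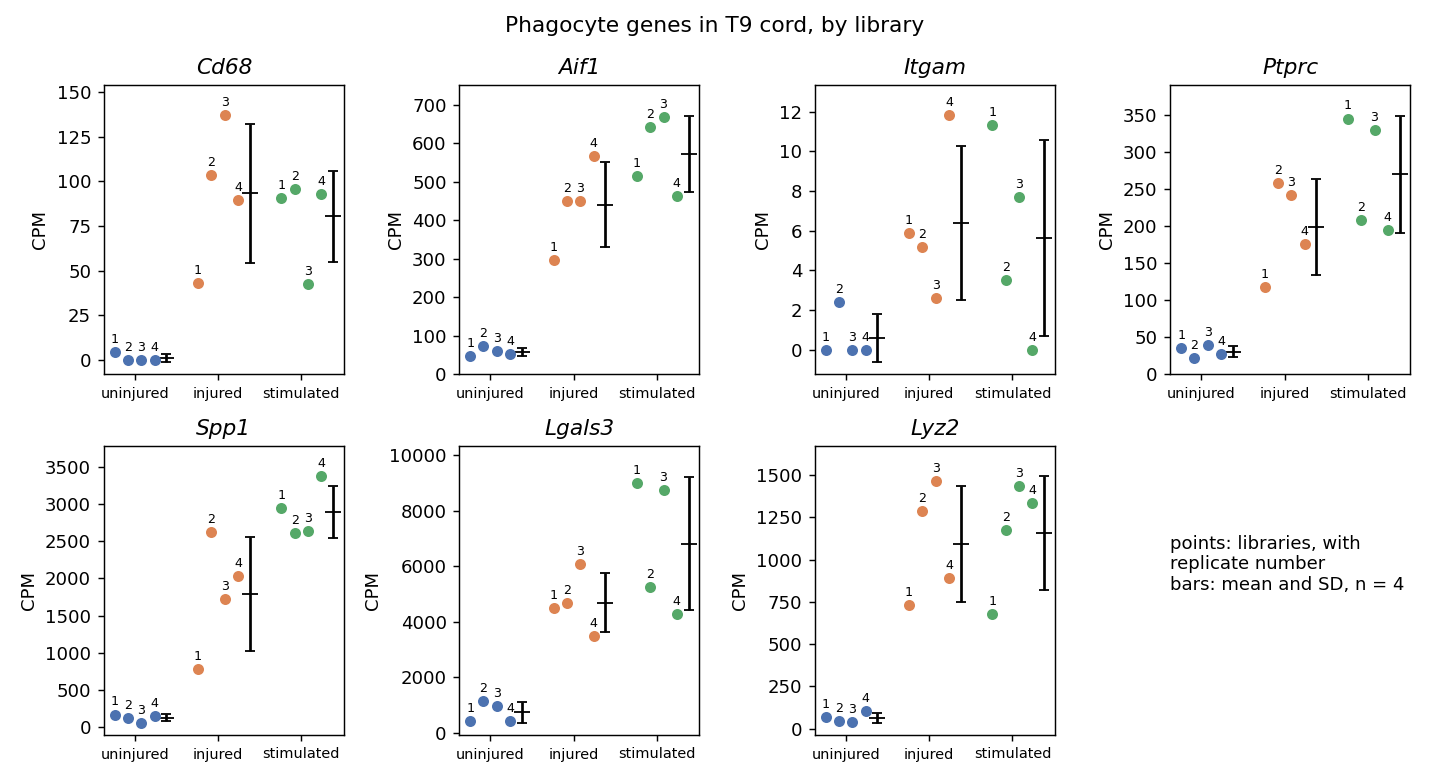
CPM of each of the 7 genes (panels, linear axes from 0 or just below) in the 12 libraries, with replicate numbers beside the points and the mean and SD of each group (n = 4) as bars. For Cd68, Aif1, Ptprc, Spp1, Lgals3 and Lyz2 every injured and stimulated library lies above every uninjured one, and Itgam stays below 12 CPM throughout.

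The first comparison asked how phagocyte genes differed in T9 cord 5 days after hemisection. All 6 members tested rose by edgeR, from 6.37-fold for Lgals3 to 77.1-fold for Cd68, a lysosomal protein gene nearly uncounted in uninjured cord. Their background was broad: 16.8% of all genes tested rose (889 of 5285, by a quasi-likelihood test in edgeR with p-values adjusted by Benjamini and Hochberg's method and called under 0.05). The median log2 fold change of the 6 was 3.34, beside -0.0037 over all genes tested and 1.57 at the 90th percentile of all genes. In these 6 the injured and uninjured libraries did not overlap, which held in the same direction for 16.6% of genes tested. Cd68 had to be high in the injured groups to be tested at all. Ptprc reached the level of the filter in 2 of 4 uninjured libraries, so it too passed through the injured groups. The genes were also chosen with earlier results of these data known, in which Cd68 had stood out for its rise. These counts and the median log2 fold change therefore describe the 6 and are not offered as support.

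Cd68 stood at 1 count in uninjured replicate 1 and at 0 in the other 3 uninjured libraries, where a count of 0 allows up to 7.20, 9.85 and 11.4 CPM (floor of 3 counts per library, counting error only). In injured cord it was at 43.3, 103, 137 and 89.7 CPM in replicates 1 to 4, from 22 to 53 counts. Injured replicate 1 was thus the lowest, at 39.3% of the mean of the other 3. The rise was 77.1-fold by edgeR (log2 fold change 6.27, SE 0.72, edgeR adjusted p = 1.04e-05). By limma-voom the log2 fold change was lower, at 5.28, with a 95% interval of 14.1 to 107-fold. The ratio of summed counts per summed total was higher than the edgeR fold, at 119, with an exact 95% counting interval of 21.1 to 4732. The size of each depends on the single uninjured count. With uninjured replicate 1 left out, the uninjured count was 0 and the exact 95% interval of the ratio had only a lower limit, of 25.8. With uninjured replicate 2 left out, the ratio was 78.8.

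Lyz2, the lysozyme gene, was at 69.4, 45.6, 39.4 and 102 CPM in uninjured replicates 1 to 4. In injured cord it was at 731, 1286, 1467 and 889 CPM. The lowest injured library lay far above the highest uninjured one. The rise was 17.2-fold (log2 fold change 4.10, SE 0.39, edgeR adjusted p = 2.44e-06). In RefSeq a second lysozyme gene, Lyc2, lies next to Lyz2 on chromosome 7 and carries Lyz2 as a synonym, so reads may have been split between the 2 genes or assigned to either, and the value is uncertain to that extent.

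Spp1, which encodes the secreted protein osteopontin, was at 173, 125, 65.7 and 159 CPM in uninjured replicates 1 to 4. In injured cord it was at 788, 2628, 1723 and 2028 CPM. Here too injured replicate 1 was the lowest, at 37.1% of the mean of the other 3. The rise was 13.7-fold (log2 fold change 3.78, SE 0.40, edgeR adjusted p = 4.52e-06). The standard deviation in injured cord was 42.8% of the mean, where counting alone would give 3.56%, so the libraries differed by far more than counting error.

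Aif1, the gene of Iba1, was at 47.7, 71.98, 59.1 and 53.1 CPM in uninjured replicates 1 to 4. In injured cord it was at 297, 450.1, 450.5 and 567 CPM. Of the 6 members its uninjured libraries were the closest together, with a standard deviation of 18.0% of the mean beside 24.01% from counting alone. The rise was 7.49-fold (log2 fold change 2.90, SE 0.30, edgeR adjusted p = 4.09e-06).

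Ptprc, the gene of CD45, was at 34.7, 21.6, 39.4 and 26.6 CPM in uninjured replicates 1 to 4. It was at 118, 259, 242 and 176 CPM in injured cord. The groups were separate, although the uninjured values rest on 7 to 12 counts each. The rise was 6.50-fold (log2 fold change 2.70, SE 0.35, edgeR adjusted p = 3.93e-05).

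Lgals3, the gene of galectin-3, was at 416, 1133, 959 and 421 CPM in uninjured replicates 1 to 4. In injured cord it was at 4481, 4677, 6075 and 3487 CPM. The uninjured libraries fell into a high and a low pair, and the high pair, replicates 2 and 3, is the one that stood at 1 end of the within-group component. Injured replicate 1, the lowest injured library for the other 5 members tested, was at 94.4% of the mean of the other 3 here. The rise was 6.37-fold (log2 fold change 2.67, SE 0.38, edgeR adjusted p = 7.92e-05).

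The deposited counts stopped just below 4096 in every library, the number of different 6-base identifiers. The highest count of a library was 4059 to 4094, although total counts differed widely. Lgals3 came closer to that limit than the other members. Its counts were 1808 to 2306 in injured cord, or 44.1% to 56.3% of 4096, and 96 to 472 in uninjured cord. If counts are distinct identifiers, a high count understates the number of molecules, because different molecules then share an identifier. Whether reads were collapsed by identifier is not given in the sources used here. Corrected for such collisions, the count of injured replicate 3 went from 2306 to 3391, and the log2 fold change of Lgals3 from 2.67 to 3.08 (edgeR adjusted p = 8.53e-05). The corrected log2 value was 3.92 for Spp1, beside 3.78, and 4.15 for Lyz2, beside 4.10. Under this correction Lgals3 no longer had the smallest rise of the 6, since Ptprc was at 2.67.

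**Figure D2:**
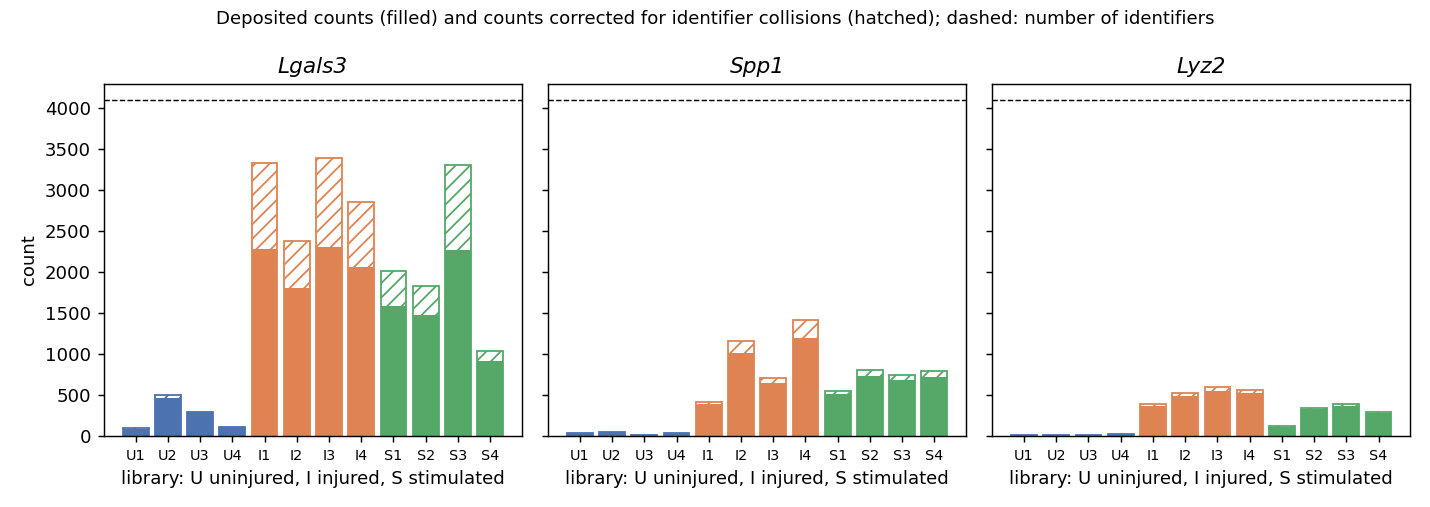
Counts of Lgals3, Spp1 and Lyz2 in each library as deposited (filled bars) and corrected for collisions among 4096 identifiers (hatched), on a linear axis, with 4096 as a dashed line. The correction is visible for Lgals3 in injured cord, where deposited counts of 1808 to 2306 become 2385 to 3391, and small for Lyz2.

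Itgam, the gene of CD11b, was scarcely counted. It had 1 count in uninjured cord, in replicate 2, and 3, 2, 1 and 7 counts in injured replicates 1 to 4. In stimulated cord it had 2, 1, 2 and 0 counts. The ratio of summed counts per summed total was 9.27 for injured against uninjured cord, with an exact 95% counting interval of 1.39 to 394. That interval lies above 1 but covers counting error only, not the spread between libraries. The CPM of the groups did not overlap, although the lowest injured and the highest uninjured library, at 2.63 and 2.40 CPM, had 1 count each. With no filter on low counts, edgeR gave an unadjusted p of 0.0204 and an adjusted p of 0.125, so Itgam did not pass the threshold.

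**Figure D3:**
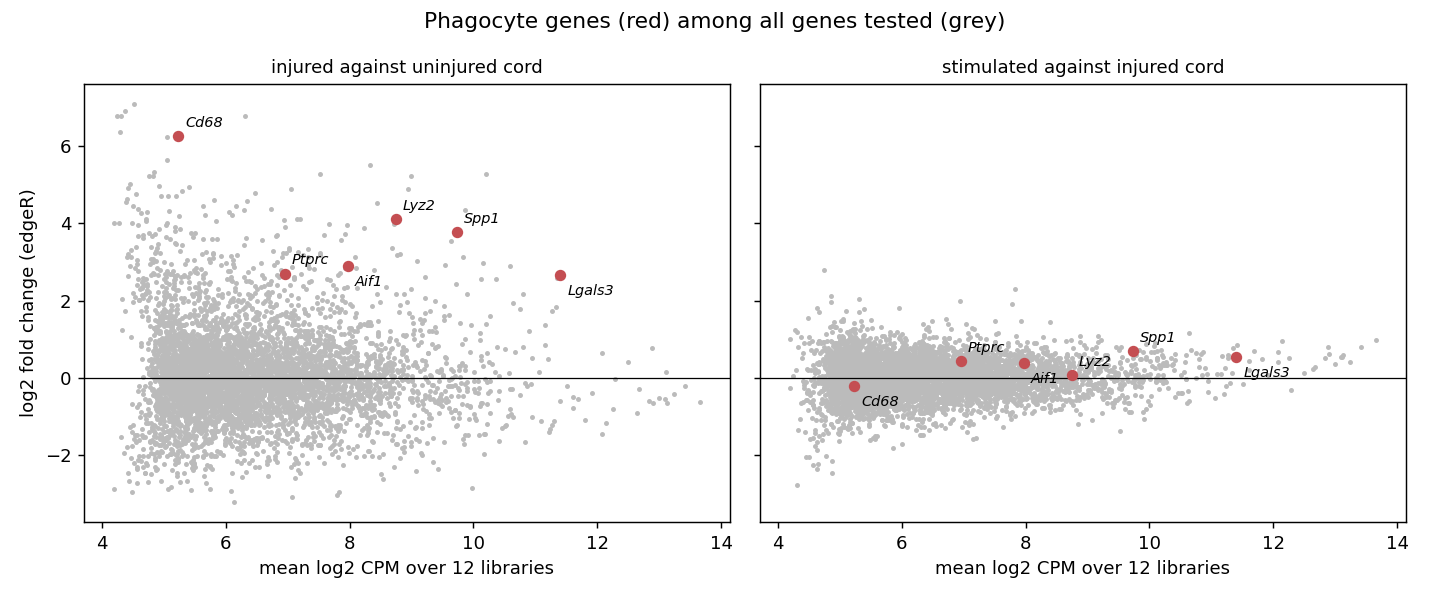
Log2 fold change from edgeR (y axis) against mean log2 CPM over the 12 libraries (x axis) for 5285 genes (grey) and the 6 members tested (red), for injured against uninjured cord (left) and stimulated against injured cord (right). Members lie between 2.67 and 6.27 on the left, where Cd68 rests on a single uninjured count, and between -0.21 and 0.69 on the right.

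By fitted fold change in injured against uninjured cord, Cd68 ranked 7th of the 5285 genes from the top, Lyz2 51st, Spp1 70th, Aif1 161st, Ptprc 191st and Lgals3 200th. Cd68 thus led the members, and its place rests on the lone uninjured count. The rises of the lysosomal genes and of Spp1 were larger by estimate than those of Aif1, Ptprc and Lgals3, but differences between members were not tested.

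The second comparison set stimulated against injured cord, which asks how phagocyte genes stood when stimulation was added to the injury. Every stimulated library held fewer counts in total than every injured one, and the part of depth in the estimates below was not tested. None of the 6 members tested passed the edgeR test, at adjusted p or at unadjusted p under 0.05, and none was called by DESeq2 or by limma-voom with sample weights. No gene of the 5285 was called by edgeR (0% of genes tested) or by limma-voom with sample weights, and 491 (9.29%) had an unadjusted p under 0.05 by edgeR. DESeq2, run on all 32883 genes of the count table, called 1. By estimate, 5 members were higher and Cd68 was lower in stimulated cord. The median log2 fold change of the 6 was 0.41, beside 0.0026 over all genes tested and 0.61 at the 90th percentile of all genes. Stimulated and injured libraries overlapped for all 7 genes, while 2.25% of genes tested lay without overlap higher and 2.57% lower.

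Spp1 came nearest to a difference. It was at 2940.3 CPM in stimulated replicate 1, 2614 in replicate 2, 2640.2 in replicate 3 and 3369 in replicate 4, against 788 to 2628 CPM in injured cord. The only overlap was that of injured replicate 2, which lay just above stimulated replicate 2. The fold was 1.61 (log2 fold change 0.69, SE 0.35, edgeR adjusted p = 0.558, unadjusted p = 0.0629). The limma-voom 95% interval was 1.05 to 2.92-fold, not adjusted for the number of genes (limma-voom adjusted p = 0.545). Leaving out 1 library at a time, the log2 fold change lay between 0.43, when injured replicate 1 was omitted, and 0.91, when injured replicate 2 was (edgeR adjusted p of 0.333 or more). The stimulated libraries were also closer together, with a standard deviation of 12.2% of their mean beside 42.8% in injured cord.

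Lgals3 was at 9002, 5243, 8724 and 4265 CPM in stimulated replicates 1 to 4, against 3487 to 6075 CPM in injured cord. As in uninjured cord it split into a high and a low pair, and the high pair, replicates 1 and 3, again stood at the same end of the within-group component. Injured cord differed, since replicate 1, at that same end, was at 4481 CPM and replicate 2, at the other, at 4677 CPM. In stimulated cord Ptprc was also highest in replicates 1 and 3. The part of that component in the difference of Lgals3 between stimulated and injured cord was not tested. The fold was 1.45 (interval 0.852 to 2.34, edgeR adjusted p = 0.623), and its log2 value of 0.54 became 0.45 after correction for identifier collisions.

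Ptprc was at 346, 209, 331 and 195 CPM in stimulated replicates 1 to 4, and its fold of 1.36 against injured cord had an interval of 0.891 to 2.13 (edgeR adjusted p = 0.632). Aif1 was at 516, 644, 669 and 464 CPM, and its fold of 1.30 had an interval of 0.909 to 1.91 (edgeR adjusted p = 0.642). For both, the highest stimulated libraries were above every injured one and the others lay among them. With 1 library omitted, the log2 fold change of Ptprc, 0.44, lay between 0.25 (injured replicate 1) and 0.58 (injured replicate 2), and that of Aif1, 0.38, between 0.22 (injured replicate 1) and 0.53 (injured replicate 4).

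Lyz2 was at 679.8 CPM in stimulated replicate 1, 1178 in replicate 2, 1433 in replicate 3 and 1337 in replicate 4, and its fold of 1.06 had an interval of 0.661 to 1.70 (edgeR adjusted p = 0.952). Cd68 was at 90.6, 95.5, 42.3 and 92.8 CPM, from 11 to 27 counts, and its fold of 0.863 had an interval of 0.517 to 1.57 (edgeR adjusted p = 0.877). The sign of both estimates turned in some alternative fits, Lyz2 with total counts and Cd68 without injured replicate 3 among them. The intervals of all 6 members left room for changes of 1.5-fold or more in at least 1 direction, so a p that missed the threshold does not show equal levels.

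**Figure D4:**
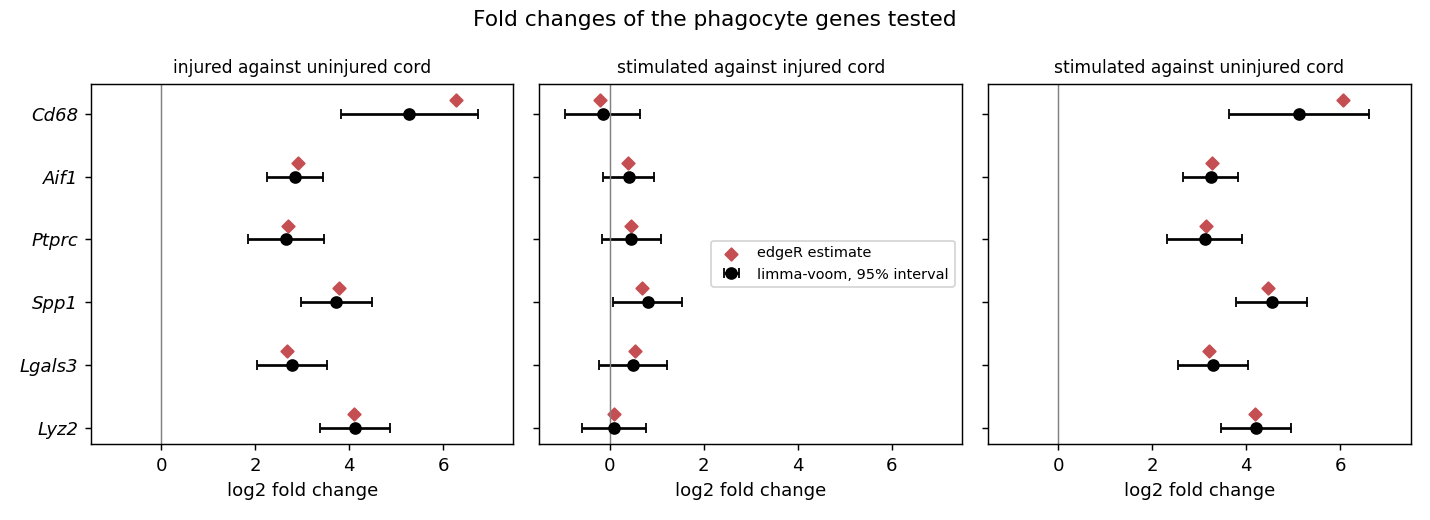
Log2 fold changes of the 6 members tested in the 3 comparisons, with limma-voom estimates and 95% intervals (black) and edgeR estimates (red). Intervals lie above 0 for all 6 in both comparisons with uninjured cord, and in stimulated against injured cord they include 0 for 5 members and reach from 0.07 to 1.55 for Spp1.

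The last comparison, of stimulated with uninjured cord, shares the uninjured libraries with the first. The 6 members tested rose in it as well (edgeR adjusted p of 1.24e-06 to 1.47e-05), where 18.3% of all genes tested rose, and no stimulated library overlapped an uninjured one, as was so in that direction for 16% of genes tested. Cd68 and Ptprc passed the filter through the injured groups, so these counts too describe the 6 and are not offered as support. The fold was 22.2 for Spp1 (log2 4.47, SE 0.41), 18.2 for Lyz2 (4.19, SE 0.40), 9.73 for Aif1 (3.28, SE 0.30), 9.26 for Lgals3 (3.21, SE 0.39) and 8.84 for Ptprc (3.14, SE 0.36). In injured cord the same genes stood at 13.7, 17.2, 7.49, 6.37 and 6.50. By edgeR the fold of Cd68 was 66.6. Its ratio of summed counts was 94.5, with a 95% counting interval of 16.4 to 3782. With uninjured replicate 2 left out it was 62.5, and with uninjured replicate 1 left out the exact interval had only a lower limit, of 20.2. The summed counts of Itgam gave a ratio of 6.38 (95% counting interval 0.714 to 302). In every member the order of the group means had uninjured cord lowest, and no member tested differed between its injured and stimulated means by the edgeR test.

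The members did not move as 1 block from library to library. In injured cord replicates 2 and 3 were above the group mean for 6 of 6 members tested and replicate 1 for 0 of 6. The matching shares over all genes tested were not computed, and replicate 1 also stood apart on the first principal component of all genes. Its low values pull down the mean the others are set against, so these counts are not read as a trait of the members. The size of the deviation differed by gene, and in injured replicate 1 Lgals3 fell short of its mean by 0.03 on the log2 scale and Spp1 by 1.05. In uninjured cord 2 to 4 of the 6 were above the mean in each library, and in stimulated cord 3 or 4. Lgals3 and Lyz2 lay on opposite sides of the group mean in each of the 4 uninjured libraries. Counting error is large for the low genes in this view.

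**Figure D5:**
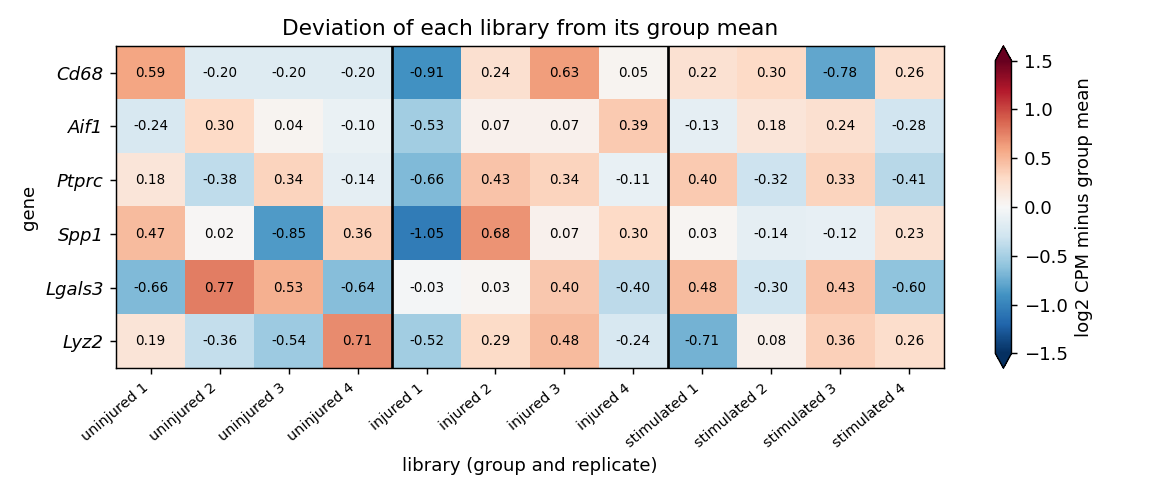
Log2 CPM of each library minus its group mean (colour and printed value) for the 6 members tested, by library. Injured replicate 1 is below the mean in all 6 rows, from -0.03 for Lgals3 to -1.05 for Spp1, while uninjured and stimulated libraries show no common direction.

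The genes outside the 7 whose centred log2 CPM profile over the 12 libraries was closest to the mean profile of the 6 members were ENSRNOG00000031058 and ENSRNOG00000020206. Their root mean square differences from it were 0.13 and 0.26 log2 units, beside 0.31 for Aif1 to 0.55 for Lgals3 among the members. The 2 genes were picked for the smallest difference and the members were not, so the values are not compared like for like. ENSRNOG00000031058 was at 16.7 ± 2.38 CPM in uninjured cord, 216 ± 59.1 CPM in injured cord and 287 ± 24.7 CPM in stimulated cord (mean ± SD, n = 4). The likeness takes in the difference between groups, which many genes shared, and the tables used here give neither gene a name.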

How the data were processed

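RNA of T9 spinal cord was sequenced in 12 CEL-Seq2 libraries, per the labels' protocols. The authors deposited raw counts, whole numbers for each gene in each library. HISAT2 2.0.4, HTSeq 0.6.0 and Rnor_6.0 appear in the submitters' processing notes without role or order. Annotation release, strand setting and handling of identifiers are, in the sources used here, not given. The 7 genes, lists and tests were chosen with earlier results of these data known, and Cd68 had already stood out for its rise.

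The analysis used R 4.3.3 and edgeR 4.0.16: filterByExpr by group (5285 genes kept, with 92.6% to 93.9% of counts), TMM, and a robust quasi-likelihood fit of group to the 12 libraries (9 residual degrees of freedom). The fit was also run on simulated counts, drawn independently for each gene and library. Those counts held no within-group component, so that run does not show how well the fit suits these data. P-values were adjusted over all genes tested by Benjamini and Hochberg's method, with a threshold of 0.05. A standard error is the log2 fold change over the square root of F. Log2 CPM used a prior count of 2. Fold intervals came from limma 3.58.1 with voom, and those of count ratios were exact 95% intervals by Clopper and Pearson's method, for counting error alone. Counts of libraries in the same group differed by more than sampling noise in each pair (chi-square over its degrees of freedom of 2.95 or more). All 7 members and the 2 genes nearest in pattern were named. Lists of other phagocyte genes and of cell type markers, set by symbol, were not run, since 0 of 47357 rows of the RefSeq table (GRCr8) carried an Ensembl identifier. Alternatives were median-ratio factors, total counts, 2 other filters (none, or a mean count of 20), a fit of the 2 groups alone, a block for the replicate number, DESeq2 1.42.0, weighted limma-voom, correction for identifier collisions, and leaving out each library.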

Additional observations from a re-analysis of the deposited data

Results flagged for a closer look

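Of 21 sets of 4 libraries examined (7 genes in 3 groups), 3 had a library whose distance to its nearest neighbour, as a share of the range, passed Dixon's 95% critical value, where chance gives about 1.05. In stimulated replicate 3, Cd68 was at 42.3 CPM from 11 counts, while replicates 1, 2 and 4 lay between 90.6 and 95.5 CPM (share 0.909). In uninjured cord, Cd68 was at 4.34 CPM in replicate 1 and at 0 elsewhere, and Itgam was at 2.40 CPM in replicate 2 and at 0 elsewhere. Each of these levels is 1 count, and a set with a single count gives a share of 1 whatever the data.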

How the results depend on the processing

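The 6 members tested rose in injured and in stimulated against uninjured cord under every alternative run, and 0 were called in stimulated against injured cord. Leaving out each library gave 6, 0 and 6 as well. Since Cd68 and Ptprc passed the main filter through the injured groups, these counts describe the members and are not offered as support. In stimulated against injured cord the log2 fold change of Lyz2, 0.084, was -0.051 with total counts and -0.0042 with no filter. It was -0.075 when injured replicate 1 was left out, the lowest, -0.0034 for injured replicate 4, -0.067 for stimulated replicate 3, and 0.27 for stimulated replicate 1, the highest. That of Cd68, -0.21, ran from -0.47 when injured replicate 1 was left out to 0.0076 for injured replicate 3. The cause was not tested. With total counts the median of all genes went to 0.116 in injured against uninjured and to -0.148 in stimulated against injured cord, and members' values shifted with it.

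Over all genes, 1692 were called in injured against uninjured cord, 1123 with a mean count of 20, where fewer genes were tested, and 1369 to 1827 without 1 library. In stimulated against injured cord 28 of 18333 were called with no filter, 1 with DESeq2 run on all 32883 genes, and 0 to 1 without 1 library. In stimulated against uninjured cord the number was 1826, and 1523 to 1916 without 1 library. With the replicate number as a block, 6, 0 and 6 members and 1801, 0 and 1911 genes were called. Deviations of same-numbered libraries from their group means had correlations across genes of -0.344 to 0.429 for injured and uninjured cord and -0.313 to 0.418 for stimulated and uninjured cord. For stimulated and injured cord all 4 were positive, at 0.0657 for number 1 and 0.116 to 0.291 for the others. The labels do not say that numbers pair libraries, and the pairing of the injured groups was not settled by these values. Depth limits Cd68 and Itgam.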
